A study of Mus musculus with 8 samples.

Results

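The genes described here encode the receptors for vascular endothelial growth factors (VEGF) and for angiopoietins: Flt1, Kdr and Flt4, the neuropilin co-receptors Nrp1 and Nrp2, and the Tie receptors Tek and Tie1. They were chosen by name as a receptor family and not by a measured value, although earlier results of these data were known. They make up 7 of the 34610 annotated genes on which the data could be pooled. VEGF receptors are receptor tyrosine kinases: a VEGF dimer brings a pair of them together, and their kinase domains then start the signals that make endothelial cells divide, migrate and sprout. Neuropilins bind VEGF as well as class 3 semaphorins and present the growth factor to Kdr or Flt4. Angiopoietins act on Tek, also called Tie2, to keep vessels quiescent, and Tie1 pairs with Tek. In the embryo Kdr marks the mesoderm from which endothelial and blood cells arise, and Etv2, an ETS-family transcription factor, is known to act on genes of this family.

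The libraries came from mouse embryonic fibroblasts (MEFs), which are primary connective tissue cells grown from embryos. Control cells (day 0) were compared with cells on day 1 of reprogramming by Etv2, and on each day 2 libraries came from nuclei treated with the GpC methyltransferase M.CviPI and 2 from material that did not receive the enzyme, which makes 4 groups of 2 libraries and 8 in all. In this assay, NOMe-seq, the enzyme methylates the cytosine of a GpC dinucleotide where the DNA is not covered by a nucleosome or another protein, and bisulfite sequencing reads that methylation, so that a high level in treated libraries means open DNA and the untreated libraries give the background. The mouse strain, the way Etv2 was delivered and the treatment of the control cells were not given in the sources used here. Whether the pair of libraries in each group stems from different cultures is also not stated, so the p-values below may measure only technical spread. Each library mixes many cells, and a larger share of open cells cannot be told apart from DNA that is open for more of the time in every cell. The labelled cell type could not be checked against marker expression, since only DNA was read.

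A call is 1 read over 1 cytosine, and the level of a gene is the percentage of methylated calls among all calls over its locus, which is the annotated gene and 1 kb on each side. The libraries held between 439527 and 1012656 sites and between 1693307 and 3577740 calls. The median site had 3 reads, the fewest that any site had. Over all gene loci the mean level was 2.08% ± 0.0262 (SD, n = 2) in the day 0 untreated and 1.03% ± 0.00487 in the day 1 untreated libraries, against 29.5% ± 0.114 and 30.6% ± 0.0683 in the treated libraries.

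Flt1 spans 147561604 to 147726438 of chromosome 5 on the minus strand (build mm10, as are all coordinates here), a length of 164.835 kb. Kdr lies on the same chromosome and strand from 75932827 to 75979072, and Flt4 on the plus strand of chromosome 11 from 49609679 to 49652739. Nrp1 is on the plus strand of chromosome 8 from 128358591 to 128505476, and Nrp2 on the plus strand of chromosome 1 from 62703317 to 62818692. Both Tie receptor genes are on chromosome 4, Tek on the plus strand from 94739086 to 94874976 and Tie1 on the minus strand from 118471191 to 118489849. Long non-coding RNA genes overlap 4 of these loci: Gm35383 at Flt1, Gm32727 at Kdr, Gm32643 and A930035F09Rik at Nrp1, and Gm29083 and 4930487H11Rik at Nrp2. Calls there belong to both genes. The windows beside Tek and Tie1 also hold the end of the protein-coding gene Eqtn and the pseudogene Gm12859, respectively.

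RefSeq's promoter table gives 1 transcription start per gene, with a window from 250 bases before to 50 bases after it. This start is the outermost annotated one for Flt4, Nrp2 and Tie1, and lies inside the gene by 427 bp at Flt1, 617 bp at Kdr, 482 bp at Nrp1 and 203 bp at Tek. In these windows Flt4 had covered cytosines, and no library had any at the other 6 genes; calls around the outermost annotated starts are given further on. The plus strand of that start, from 250 bases before it to 30 bases into the gene, is shown because it is the only one of these windows in which single cytosines were read (chr11:49609429-49609708, RefSeq, assembly GRCm38.p6). Capitals mark the 5 covered cytosines within it, 2 before the start and 3 after it.
Flt4 start: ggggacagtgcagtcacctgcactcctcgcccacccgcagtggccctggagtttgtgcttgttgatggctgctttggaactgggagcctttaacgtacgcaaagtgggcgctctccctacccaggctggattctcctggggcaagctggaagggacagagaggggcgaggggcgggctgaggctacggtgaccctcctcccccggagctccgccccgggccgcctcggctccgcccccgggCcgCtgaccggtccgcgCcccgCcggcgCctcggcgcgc
Each capital follows a g and precedes a base other than g, which is the context in which GpC methylation can be read apart from CpG methylation. The same held for all sites of the 8 libraries that fell into a RefSeq promoter window (100%, between 6492 and 10239 sites per library). The windows of the 7 genes held 36 such cytosines at Flt1, 30 at Kdr, 51 at Flt4, 30 at Nrp1, 53 at Nrp2, 41 at Tek and 28 at Tie1 on both strands, where the median of all promoter windows was 34. The core of the ETS motif, GGAA on either strand, occurred in the windows of all 7 genes, with 1 match at Nrp2, 2 each at Flt4 and Tek, 4 at Flt1, 5 each at Kdr and Nrp1 and 9 at Tie1. Since 96.0% of all 32851 promoter windows hold GGAA, with a median of 3 matches, its presence is a description of these letters and not of a site.

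The 10 cytosines at the Flt4 start in the second day 0 treated library lay between 8 and 120 bp into the gene and gave 14 methylated of 30 calls, a level of 46.7% with an exact Clopper-Pearson interval of 28.3 to 65.7%. All 10 were methylated in at least 1 of their 3 reads. The cytosines at 94 and 97 bp were methylated in 3 of 3 reads, and the other 8 in 1 of 3. In the first day 1 untreated library 8 cytosines at -9 to 85 bp (negative is before the start) gave 0 of 25 calls. At the 3 positions that both libraries covered, 13, 19 and 85 bp into the gene, 3 of 9 calls were methylated with the enzyme and 0 of 10 without it. Neighbouring cytosines can lie on the same read, and reads from PCR-amplified libraries need not be separate molecules, so that the interval covers counting error only. No day 1 treated library covered this stretch. There the nearest call to the Flt4 start was a single cytosine 751 bp into the gene, methylated in 2 of 3 reads in the second library. The opening of the Flt4 start therefore could not be compared between the days.

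**Figure D1:**
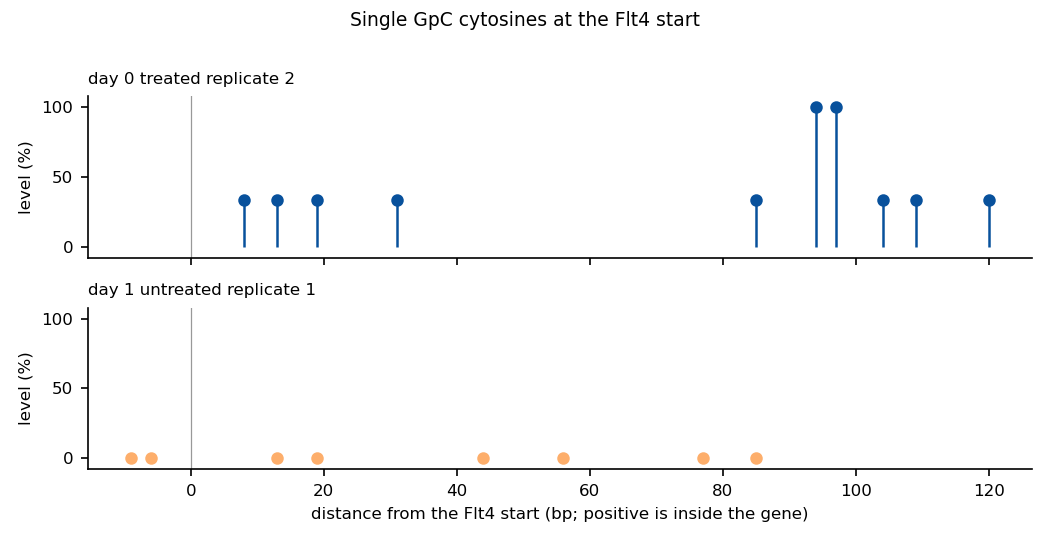
Methylation level in percent (vertical axis) of single GpC cytosines by their distance in bp from the Flt4 start (horizontal axis, positive inside the gene), in the second day 0 treated library (upper panel) and the first day 1 untreated library (lower panel). Of the 10 treated cytosines, 2 are at 100% and 8 at 33.3%, while the 8 untreated ones are at 0.

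Coverage set what could be asked of each gene. Over the 8 libraries the 7 loci held 1856 covered sites at 1808 positions, 90.6% of them with 3 reads and none with more than 5. A single library alone covered 97.4% of the positions. The groups held 876 calls in day 0 untreated, 1008 in day 0 treated, 2341 in day 1 untreated and 1543 in day 1 treated libraries. Counting sites no more than 150 bp apart as 1 stretch, and the deepest site of a stretch as its reads, these calls came from at least 272, 349, 680 and 482 reads. Against the number of sites per kb over all loci, Flt4 was covered 1.16 to 2.36 times as densely and Nrp2 1.11 to 1.57 times. Tek was covered less densely than the average locus in all 8 libraries, at 0 to 0.604 times. The counts of calls ran from 0 at Tek in the first day 0 untreated library to 486 at Nrp1 in the first day 1 untreated library. Flt1, Flt4, Nrp1 and Nrp2 reached the minimum of 20 calls in each library that the test over all 8 libraries used. Kdr, Tek and Tie1 did not reach it.

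**Figure D2:**
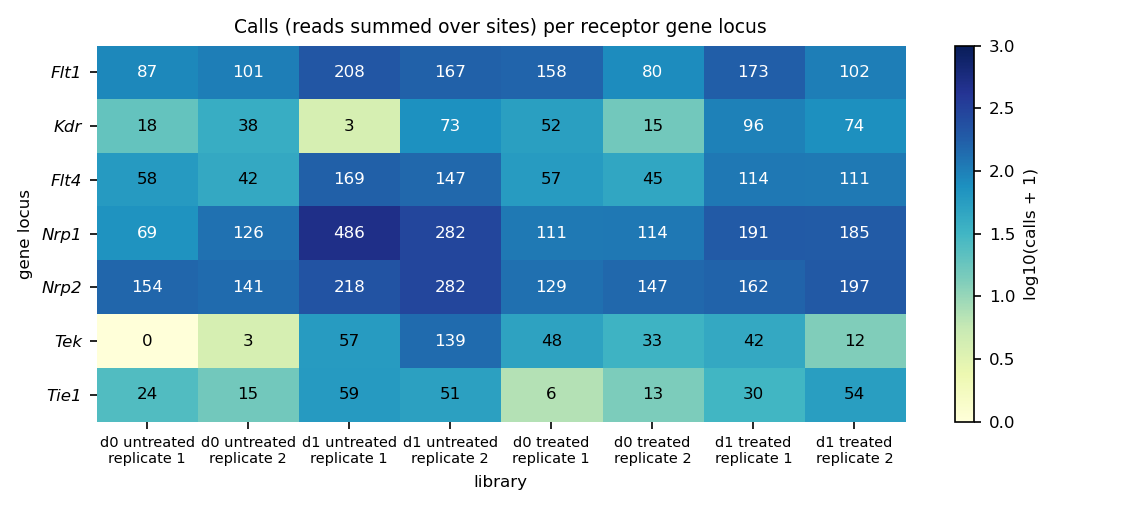
Number of calls at each receptor gene locus (rows) in each library (columns), printed in the cells and coloured by log10(calls + 1). The values run from 0 calls at Tek to 486 calls at Nrp1, both in untreated libraries, and the rows of Kdr, Tek and Tie1 hold the lowest counts.

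The first question was whether the enzyme reached these loci on each day. Flt1, which binds VEGF-A tightly and signals weakly, was at 2.30 and 0% in the untreated and at 20.3 and 30.0% in the treated libraries of day 0. On day 1 Flt1 was at 0.962 and 1.80% without the enzyme and at 30.1 and 35.3% with it. All treated libraries of Flt1 lay above all untreated ones. Pooled over the libraries of a group, the level of Flt1 was 22.1 times as high with the enzyme as without it on day 0 (95% interval 5.84 to 187, counting error only) and 24.0 times as high on day 1 (9.90 to 75.7).

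Kdr, the main signalling receptor for VEGF-A in endothelium, had no methylated call in any untreated library. Its untreated counts were 0 of 18 and 0 of 38 calls on day 0 and 0 of 3 and 0 of 73 calls on day 1, which allow a level of up to 5.36% on day 0 and 3.95% on day 1. With the enzyme, Kdr was at 26.9% (14 of 52 calls) and 33.3% (5 of 15) on day 0 and at 25.0% (24 of 96) and 10.8% (8 of 74) on day 1. Pooled over the libraries of a day, the treated level was 5.29 times that limit on day 0 and 4.77 times on day 1. These multiples leave out the counting error of the treated calls. The limits also take each untreated call as independent, although the 56 calls of day 0 came from 5 stretches and the 76 of day 1 from 7. The true limits can therefore be higher and the multiples lower.

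Flt4, the receptor for VEGF-C and VEGF-D that guides lymphatic growth, had a higher background on day 0 than on day 1. Its untreated levels were 5.17 and 4.76% on day 0 (3 of 58 and 2 of 42 calls) and 0.592 and 0% on day 1 (1 of 169 and 0 of 147). The treated levels were 40.4 and 33.3% on day 0 and 22.8 and 30.6% on day 1. The ratio of treated to untreated was 7.45 on day 0 (2.93 to 24.3) and 84.3 on day 1, the latter with an interval of 14.6 to 3383 because it rests on 1 methylated call.

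Nrp1, which binds VEGF-A and semaphorins on arterial endothelium and on axons, was at 1.45 and 1.59% without the enzyme and at 32.4 and 41.2% with it on day 0. On day 1 Nrp1 was at 0.412 and 1.42% without and at 30.4 and 35.1% with the enzyme. Nrp2, the neuropilin of veins and lymphatic vessels, was at 1.30 and 2.84% without and at 28.7 and 16.3% with the enzyme on day 0. On day 1 the levels of Nrp2 were 1.38 and 0.355% without and 28.4 and 32.0% with it. Neither neuropilin gene had an untreated library within the range of the treated ones. Their ratios of treated to untreated were 24.0 and 10.9 on day 0 and 41.9 and 38.0 on day 1 for Nrp1 and Nrp2, respectively.

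Tek had only 3 untreated calls on day 0, none of them methylated, too few for a ratio. Its treated libraries were at 31.2 and 21.2% on day 0 (15 of 48 and 7 of 33 calls) and at 14.3 and 16.7% on day 1 (6 of 42 and 2 of 12), and the untreated ones of day 1 at 1.75 and 1.44%. On day 1 the ratio at Tek was 9.68 (2.32 to 56.6). Tie1, the orphan partner of Tek, was at 8.33% (2 of 24 calls) and 0% (0 of 15) without the enzyme on day 0, and at 16.7% (1 of 6) and 30.8% (4 of 13) with it. The day 0 ratio of Tie1 was 5.13 with an interval of 0.840 to 53.9, so a difference was not detectable at this depth. On day 1 Tie1 had 0 of 110 untreated calls, which allows up to 2.73%, and treated levels of 46.7% (14 of 30) and 18.5% (10 of 54). Pooled over both libraries, the treated level of Tie1 (28.6%) was 10.5 times that limit, without the counting error of the treated calls. That limit takes the 110 untreated calls as independent, although they came from 11 stretches, so it can be higher.

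In edgeR's quasi-likelihood test, fitted over 5654 loci with a methylation term per group, the enzyme raised methylation at 4 of 4 tested receptor genes on both days. Over all loci 98.8% were called higher with the enzyme on day 0 and 99.9% on day 1, so the count of members is the background. On day 0 the log2 odds of methylation were higher by 4.78 ± 0.90 (SE) at Flt1, 3.44 ± 0.89 at Flt4, 5.14 ± 0.75 at Nrp1 and 3.73 ± 0.68 at Nrp2, with edgeR adjusted p of 2.14e-07, 0.000135, 2.49e-11 and 9.19e-08. The day 0 value of Flt1 moved to 8.64 without the first untreated library of that day, which held both methylated untreated calls. On day 1 the differences were 5.05 ± 0.70 at Flt1, 6.43 ± 1.00 at Flt4, 5.84 ± 0.61 at Nrp1 and 5.62 ± 0.67 at Nrp2. The median of all loci was 4.38 on day 0 and 5.51 on day 1. Relative to that shift, with each library centred on its median locus, no receptor gene passed the limma test on either day, where 0.141% of loci were called higher on day 0 and 0.106% on day 1, and Flt4 (-0.75) and Nrp2 (-0.36) on day 0 and Flt1 (-0.21) on day 1 took the other sign. In fits of only the 4 libraries compared with at least 10 calls in each, added after the data were seen, Kdr was also called on day 0 (edgeR adjusted p = 0.00135, background 94.5% of 9081 loci), and Tek (0.00887) and Tie1 (1.13e-05) on day 1 (background 98.6% of 13306 loci).

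**Figure D3:**
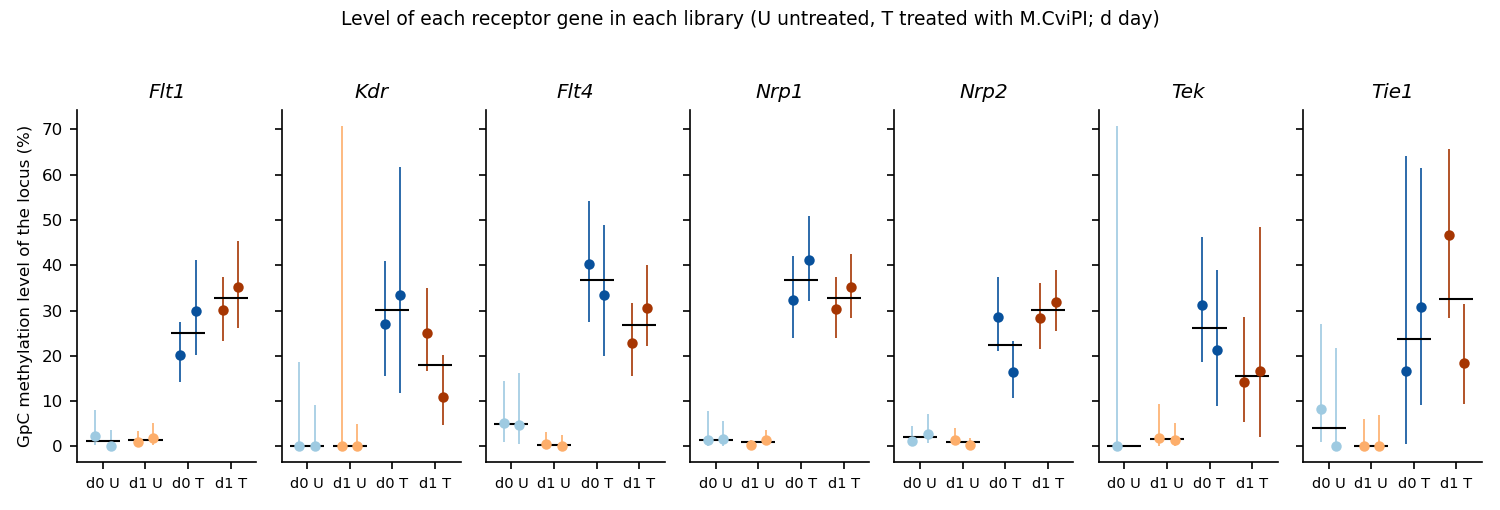
Methylation level in percent (vertical axis) of each receptor gene locus, 1 panel per gene, in the untreated (U) and treated (T) libraries of day 0 (d0) and day 1 (d1). Points are libraries, thin vertical lines their exact 95% binomial intervals and horizontal bars the group means; the treated points of Flt1 run from 20.3 to 35.3%, and those of Tie1 from 16.7 to 46.7% with the widest lines.

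The second question was whether treated DNA of these genes was more or less open on day 1 than on day 0. Flt1 had a mean level of 25.1% ± 6.89 (SD, n = 2) on day 0 and 32.7% ± 3.70 on day 1, and Nrp2 22.5% ± 8.74 and 30.2% ± 2.53. Nrp1 was at 36.8% ± 6.22 and 32.8% ± 3.37, and Flt4 at 36.8% ± 4.96 and 26.7% ± 5.53. None of the 4 was called in the test: edgeR gave log2 odds differences of 0.58 ± 0.54 (SE) at Flt1, -0.70 ± 0.65 at Flt4, -0.26 ± 0.48 at Nrp1 and 0.61 ± 0.49 at Nrp2, each with an adjusted p of 0.999. In simulated data this test found 8% of the loci changed by 1 in log2 odds, so changes of the size seen here would mostly be missed. No locus of the 5654 was called in either direction (0%), where 177 had an unadjusted p under 0.05 in edgeR and 70 in limma, which called 0 as well. No receptor gene was among those with an unadjusted p under 0.05 in either tool. The values depended on single libraries. Without the first day 0 treated library Flt1 was at 0.16, Flt4 at -0.46, Nrp1 at -0.53 and Nrp2 at 1.15, and without the second 0.91, -0.90, 0.018 and 0.11, so that Nrp1 took the other sign. Flt4 ran from -0.99 to -0.41 over the libraries left out.

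Among the day differences of all 5654 loci, whose median was 0.10, Nrp2 stood at percentile 85.1, Flt1 at 83.9, Nrp1 at 22.7 and Flt4 at 6.79. The median of the 4 was 0.16, with 2 values above 0 and 2 below it, none of which passed the test.

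**Figure D4:**
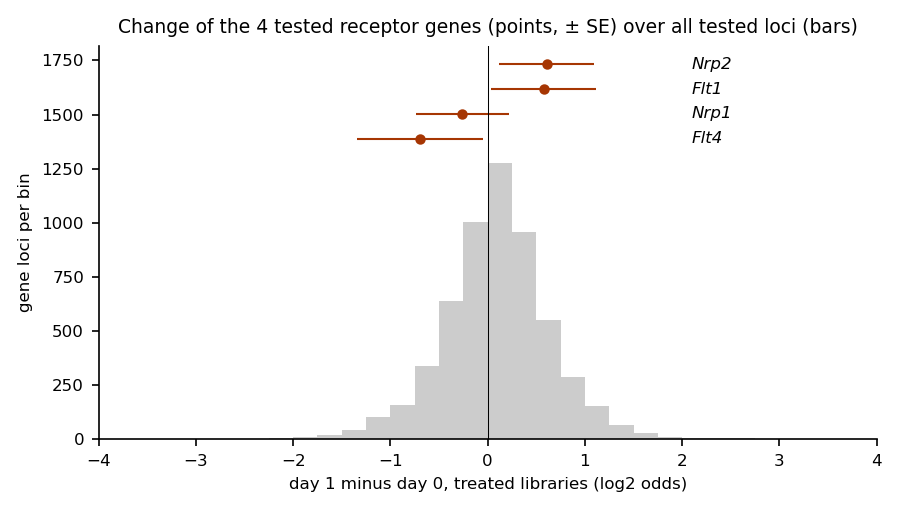
Difference in log2 odds of methylation between day 1 and day 0 in treated libraries (horizontal axis): bars count the 5654 tested loci per bin (vertical axis), and points with horizontal lines give the 4 tested receptor genes ± SE at arbitrary heights. Nrp2 (0.61) and Flt1 (0.58) lie right of 0, and Nrp1 (-0.26) and Flt4 (-0.70) left of it, all inside the spread of the bars.

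Kdr and the Tie receptors were too thinly covered for that test. The treated mean of Kdr was 30.1% ± 4.53 on day 0 and 17.9% ± 10.03 on day 1, and that of Tek 26.2% ± 7.10 and 15.5% ± 1.68. Tie1 was at 23.7% ± 9.97 and 32.6% ± 19.9. In the fit of only the 4 treated libraries over 10711 loci, Kdr differed by -0.89 ± 0.78 and Tek by -1.02 ± 0.97 in log2 odds, each with an edgeR adjusted p of 0.976. That fit called 0.028% of loci higher and 0 lower on day 1.

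By ranges alone, 6 receptor genes had at least 10 calls in each of the 4 treated libraries. Flt1 was higher in both day 1 libraries than in both day 0 libraries, as were 21.2% of 10711 loci. Flt4, Kdr and Tek were lower in both day 1 libraries, as were 13.4% of loci, and Nrp1 and Nrp2 overlapped. The exact two-sided permutation p is 0.33 for each gene that does not overlap, the smallest that 2 against 2 libraries can give. Within the gene bodies alone Flt1, Flt4 and Kdr overlapped between the days. The body of Flt4 was at 40.4 and 6.67% on day 0 (the latter 1 of 15 calls) and at 22.8 and 29.3% on day 1. The body of Kdr was at 37.5 and 11.1% on day 0 and at 27.1 and 10.8% on day 1. For the body of Flt1 the second day 0 library (30.0%) lay just above the first day 1 library (29.7%), while the difference of the means was almost the same in the body (7.42 points) as over the locus (7.55). Tek had no treated call at its ends, so its body and locus levels are the same and this comparison could not change its separation. It rests on 81 calls of day 0 and 54 of day 1, with 12 calls from 1 stretch in the second day 1 library.

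Ranked among the 10711 loci, whose levels lay between 17.0% (5th percentile) and 45.3% (95th) on day 0, Flt4 and Nrp1 were the most open receptor genes on day 0, at percentiles 83.2 and 83.1. They were followed by Kdr (56.9), Tek (34.3), Flt1 (28.2) and Nrp2 (17.2). On day 1, with 19.9 and 43.2% as those percentiles, the order was Nrp1 (66.1), Flt1 (65.6), Nrp2 (49.3), Flt4 (25.7), Kdr (2.89) and Tek (1.52). Tie1 had too few calls to be ranked. Neighbours in either order did not differ beyond their spread, since the treated libraries of each gene overlapped those of the next. The low day 1 ranks of Kdr and Tek rest on 170 and 54 calls.

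The positions behind these levels differed between libraries. Both days' treated libraries shared 2 sites, both in Nrp1, at which 3 of 6 calls were methylated on day 0 and 2 of 6 on day 1. They shared 29 blocks of 1 kb, with a level of 25.0% in 244 calls on day 0 and 30.3% in 287 calls on day 1. Nrp1 held 11 of these blocks, at 35.6% on day 0 and 38.2% on day 1. In the 5 shared blocks of Flt1 the level was 8.89% of 45 calls on day 0 and 35.9% of 39 calls on day 1, a wider gap than over the whole locus. The 2 shared blocks of Kdr were at 22.7% of 22 calls and 21.9% of 32 calls, where the whole locus had the lower level on day 1. How far the day differences come from different cytosines having been read on each day was not tested beyond these blocks. Where a treated and an untreated library of 1 day shared sites, 10 of 15 calls were methylated with the enzyme and 0 of 15 without it on day 0, at 5 sites of Nrp1 and Flt1. On day 1 the counts at 16 shared sites were 12 of 52 with the enzyme and 1 of 48 without it.

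Over single stretches the treated level varied from 0 to 100% within the family. The median stretch was at 33.3% on both days, with 19.3% of 114 stretches at 0 on day 0 and 19.4% of 155 on day 1. Since most sites had 3 reads, 33.3% is often 1 methylated read. Flt1 had 7 of 25 stretches at 0 on day 0 and 4 of 30 on day 1, and stretches above 50% on day 1 alone, 5 of them. Kdr had 1 of 8 stretches at 0 on day 0 and 5 of 16 on day 1. Nrp1 held the stretches at 100%, and its stretches at 0 were 7 of 30 and 9 of 39. In the untreated libraries 80.7% of 88 stretches were at 0 on day 0 and 93.0% of 214 on day 1.

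**Figure D5:**
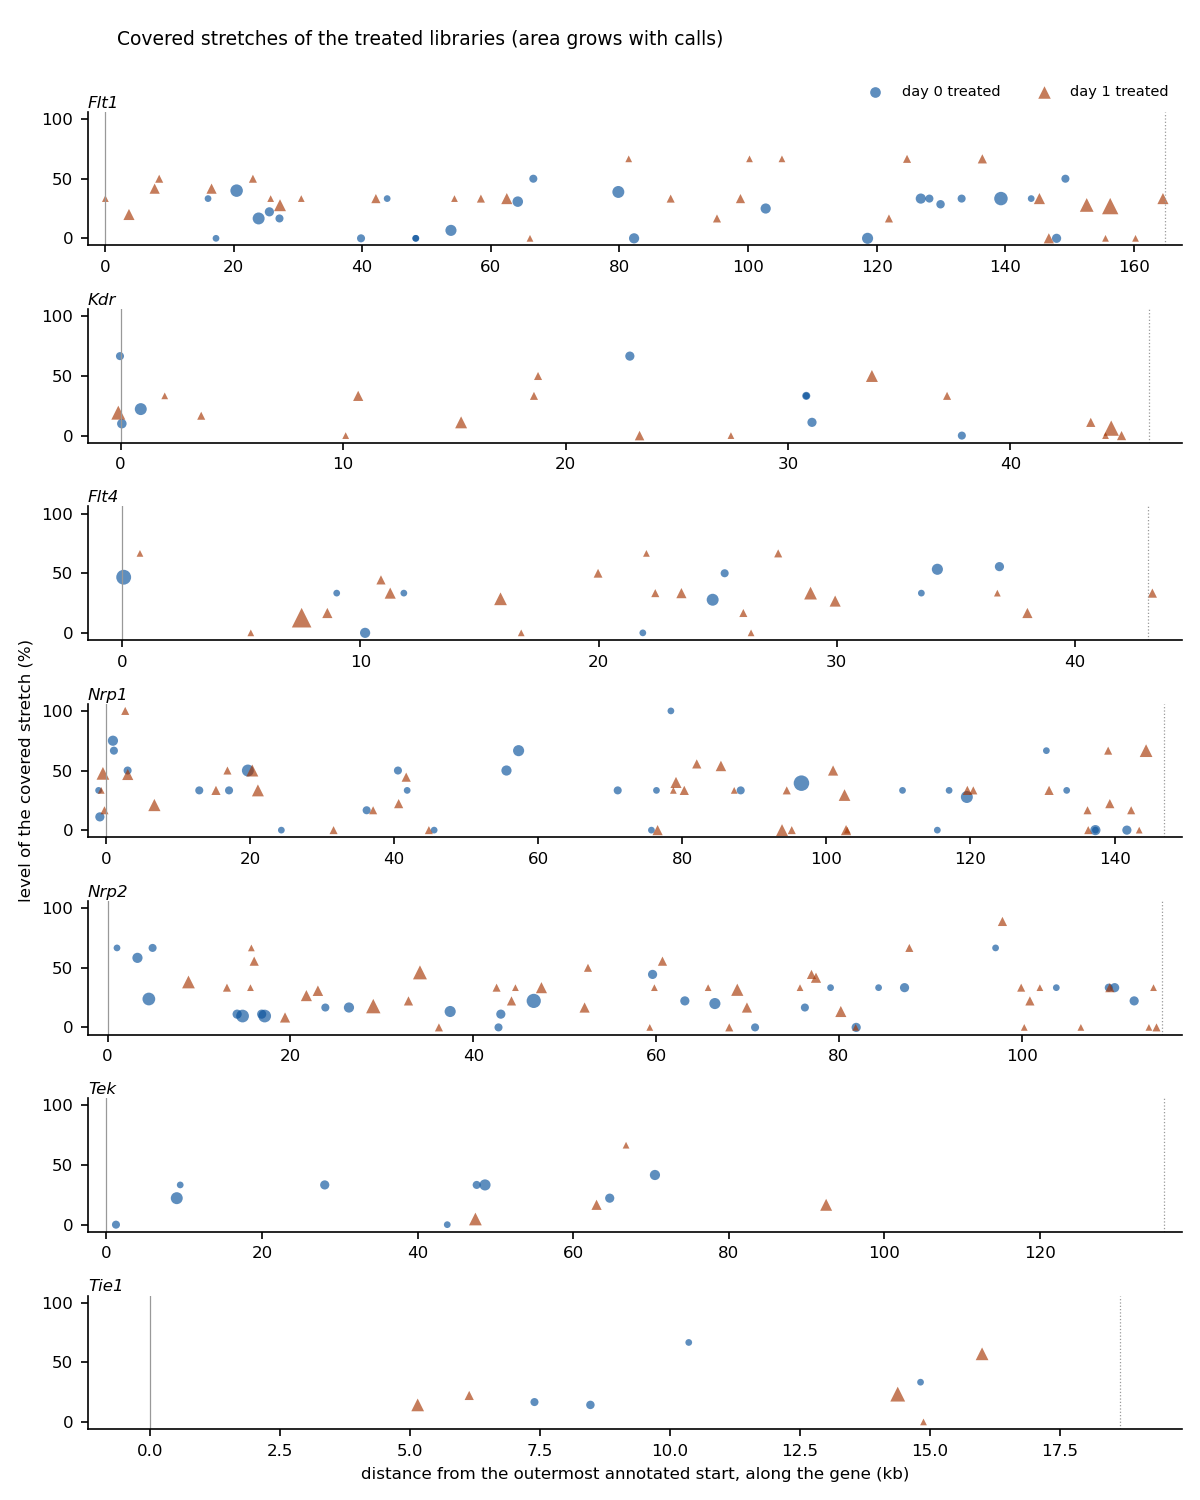
Level in percent (vertical axis) of each covered stretch in the treated libraries by its distance in kb from the outermost annotated start, measured along the gene (horizontal axis), 1 panel per gene. Circles are day 0 and triangles day 1, the area grows with the number of calls, and the solid and dotted vertical lines mark the annotated start and end; stretches from 0 to 66.7% are scattered along Flt1 on day 1, and the far end of Tek holds none.

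Cut into 4 equal parts from start to end, the pooled gene bodies stood between 26.2 and 31.8%, with an SD between libraries of up to 10.9 points: 29.4, 29.1, 26.8 and 28.7% on day 0 and 31.8, 26.2, 28.2 and 29.5% on day 1 as means of the treated libraries. Single genes varied more, on few calls. Flt4 was at 16.7, 33.3, 29.6 and 51.9% on day 0, with 3 to 27 calls per part. The first part of Flt4 had an SD of 23.6 (n = 2) on day 0 and was at 6.72% ± 9.50 (SD, n = 2) on day 1. With the calls of both libraries pooled, that part went the other way, from 6.67% of 15 calls to 12.9% of 70. No direction can therefore be given for it. Kdr had no treated call in its first part on day 0 and was at 66.7, 26.7 and 0% in the others, on 9, 18 and 6 calls. Its values of 66.7 and 0% each came from 1 library. The third part of Flt1 was at 11.1% on day 0, from 1 library. Nrp1 was on day 0 at 54.2% ± 17.7 (SD, n = 2), 45.0% ± 16.5, 34.7% ± 13.7 and 9.80% ± 13.9. On day 1 the parts of Nrp1 were at 38.5% ± 3.01, 23.3% ± 4.71, 26.3% ± 0.949 and 36.3% ± 4.16. The last part of Nrp1 rests on 57 calls on day 0 and 81 on day 1.

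Gene ends, within 1 kb on either side of the annotated start or transcript end, were covered in fewer libraries. At the Kdr start the first day 0 treated library had 5 of 28 methylated calls between 40 and 925 bp into the gene (17.9%), and the second 4 of 6 at -27 and -22 bp. The first day 1 treated library had 5 of 26 calls at -139 to -65 bp from the Kdr start (19.2%, interval 6.55 to 39.4%), and the second had none. At the Nrp1 start the first day 1 treated library had 11 of 27 methylated calls at -415 to -176 bp (40.7%, 22.4 to 61.2%). The second day 0 treated library had 7 of 18 calls there (38.9%), at -852 to 997 bp. No position at a start was read in treated libraries of both days. The Tek start was read in a single untreated library of day 1, with 0 of 34 methylated calls at -999 to -211 bp, and the starts of Tek, Tie1 and Nrp2 had no treated call. Pooled over the 7 genes, the ends were at 32.8% ± 19.1 on day 0 and 30.3% ± 0.886 on day 1. The day 0 value joins 19.4% in the first library and 46.3% in the second, and the difference of -2.57 points was 10.9 points without the second and -16.04 without the first. It was 2.11 with windows of 500 bp and -10.3 with windows of 2 kb, so that no direction can be given for the ends. The day 0 treated calls at the ends all lay at starts, while 33 of the 95 of day 1 lay at transcript ends. At starts alone the levels were 32.8% ± 19.1 on day 0 and 37.3% ± 10.1 on day 1.

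All 7 loci pooled were at 28.2% ± 0.0169 on day 0 and 28.8% ± 1.19 on day 1 with the enzyme, a difference of 0.639 points, which is within the spread of the day 1 libraries. It was -1.87 points with each gene weighted equally, 5.87 in the 29 blocks that both days covered and -0.206 without the second day 1 library. The bodies alone were at 27.2% ± 2.11 and 28.7% ± 1.38. The pooled difference also depended on single genes: it was -1.45 without Flt1, -2.67 without Nrp2, 2.11 without Nrp1 and 1.95 without Flt4.

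The third question was how the background of these genes differed between the days. Pooled over the 7 loci, the untreated level was 2.08% ± 0.511 on day 0 and 0.813% ± 0.0894 on day 1, beside 2.08 and 1.03% over all loci. Flt4 and Nrp1 were lower in both day 1 libraries than in both day 0 libraries, out of 5 receptor genes with at least 10 calls in each untreated library. The same held for 24.5% of 10511 loci, and none of the 5 was higher in both, as 5.4% of loci were. In edgeR no receptor gene was called: Flt4 differed by -3.68 ± 1.55 (SE, adjusted p = 0.162), Nrp2 by -1.28 ± 1.01 (0.530), Nrp1 by -0.96 ± 1.22 (0.710) and Flt1 by 0.30 ± 1.31 (0.938). Over all loci edgeR called 5.16% lower and 0.0707% higher, and the median locus differed by -1.01. Flt4 was the only one of the 4 with an unadjusted p under 0.05 in edgeR (0.0173), and limma on log2((methylated + 1)/(unmethylated + 1)) called it lower (-3.02, adjusted p = 0.00971), as it did 16.7% of loci, with 0.0884% called higher. With each library centred on its median locus, limma called none of the 4. Over counts of calls, the day 0 level of Flt4 was 15.8 times that of day 1, with an interval of 1.77 to 747 from 5 and 1 methylated calls. Tie1 entered the fit of the 4 untreated libraries with an adjusted p of 0.860 in edgeR, where 0.0828% of loci were called lower.

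The net day effect, which is the day difference with the enzyme less that without it, was 2.99 ± 1.66 at Flt4 (edgeR adjusted p = 0.346), 1.89 ± 1.13 at Nrp2 (0.388), 0.70 at Nrp1 (0.810) and 0.27 at Flt1 (0.969). None of the 4 passed, where 3.54% of all loci were called higher and 0 lower, and the median locus was at 1.10. At Flt4 the net value is positive although both terms are negative, since the background term (-3.68) is the larger. The sign at Flt1 and Nrp1 turned when single libraries were left out, and neither was called. The enzyme effects, the day differences and the net effect share libraries, so that they are not separate evidence.

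The pathway around the receptors was read from lists of genes. Of 8 ligands, 3 could be tested, and none was called between the days with the enzyme. Their median difference was 1.17 in log2 odds, which is the value of Vegfa, beside 0.10 for all loci. Of these 3 values 2 were above 0 and 1 below it. Vegfa, the main ligand of Flt1 and Kdr, was at 23.7% ± 7.68 on day 0 and 36.5% ± 13.0 on day 1 (1.17 ± 0.76), and Angpt4, an angiopoietin, at 27.3% ± 5.91 and 48.5% ± 16.2 (1.27 ± 0.75). The edgeR adjusted p of both was 0.999. Of 12 semaphorins and plexins, which share the neuropilins, 6 could be tested, with a median of 0.08 and none called with the enzyme. Plxna4, a plexin that carries the semaphorin signal, fell in the untreated libraries from 2.75% ± 0.608 to 1.04% ± 0.333 (edgeR adjusted p = 0.00319), and Plxnd1, the endothelial plexin, from 3.19% ± 1.66 to 0.741% ± 0.226 (0.0177). Without the enzyme, 5.16% of all loci were called lower on day 1, and the median locus differed by -1.01 in log2 odds. Plxna4 was also called in the net day effect (1.41 ± 0.44, edgeR adjusted p = 0.0383), while its treated level was 30.2% ± 1.98 and 29.9% ± 1.24. The median locus was at 1.10 in that effect, and 3.54% of all loci were called higher. Plxna1 (33.2 and 37.5%) and Sema3f (31.3 and 38.0%) had the smallest unadjusted p of this list with the enzyme and were not called.

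Of 31 signalling partners, 19 could be tested, with a median of 0.16 and none called with the enzyme. Itgav, the integrin alpha V chain that works with VEGF receptors, was at 49.2% ± 11.5 on day 0 and 16.5% ± 1.36 on day 1 (-2.37 ± 0.69, unadjusted p = 0.000585 and adjusted p = 0.999 in edgeR). Shb, an adaptor that binds Kdr, was at 25.3% ± 2.69 and 46.4% ± 15.1 (1.42 ± 0.52), also with an edgeR adjusted p of 0.999. Nck2, an adaptor between receptors and actin, fell in untreated libraries from 4.26% ± 2.24 to 0.566% ± 0.373 (edgeR adjusted p = 0.0341), where 5.16% of all loci were called lower. Of 9 related receptor tyrosine kinases, 4 could be tested, with a median of 0.40. Fgfr2, a fibroblast growth factor receptor, was at 17.5% ± 4.19 and 39.5% ± 16.0 and Flt3, a receptor of blood progenitors, at 18.9% ± 9.76 and 23.0% ± 10.7, neither called.

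Markers of the cell types that the cultures could hold gave 5 of 19 other endothelial genes, 4 of 14 fibroblast genes and 2 of 10 blood genes that could be tested, with median day differences of 0.10, 0.05 and -0.12 with the enzyme and no gene called. The endothelial transcription factor gene Erg was at 24.8% ± 2.21 and 20.5% ± 1.08, and Eng, a co-receptor for transforming growth factor beta, at 27.1% ± 4.66 and 28.2% ± 0.440. Of the fibroblast genes, Fbn1 was at 21.8% ± 4.77 and 29.4% ± 0.200 and Twist2 at 41.7% ± 10.4 and 35.4% ± 9.38. The blood genes Runx1 and Spi1 were at 26.2% ± 0.138 and 28.3% ± 3.16, and at 30.2% ± 8.07 and 24.6% ± 4.35, respectively. Fn1, the fibronectin gene, fell in untreated libraries from 3.49% ± 1.80 to 0% in both (0 of 461 calls, which allows up to 0.651%, edgeR adjusted p = 0.0111) and was called in the net day effect (0.0304), with treated levels of 27.8 and 27.7%. Over all loci 5.16% were called lower in untreated libraries and 3.54% higher in the net day effect. In every list all tested genes were called for the enzyme effect on both days, as almost all loci were.

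By the root mean square difference of levels over the 8 libraries, among 4921 protein-coding genes, the genes most like Flt1 were Abcg2 (1.32 percentage points) and Cdhr2 (1.39), where the median gene differed by 5.80. Those most like Flt4 were Zfp1 (1.92) and Elmo2 (1.95), with a median of 7.01. For Nrp1 they were Iqcn (0.928) and 3110082I17Rik (1.00), with a median of 6.72, and for Nrp2 Grb10 (1.21) and Cmip (1.26), with a median of 6.30. The libraries share the step from untreated to treated at almost every locus, so this likeness is a description of levels.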

How the data were processed

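NOMe-seq was read in 8 libraries of 4 groups. Per the labels, the authors' files are on build mm10; aligner, caller, filters and removal of duplicates were not given in the sources used here. Per cytosine, the authors deposited, without headers, a fraction of methylated reads and a count of reads, both units read from the values. Methylated reads were taken as the rounded product. Sites of at most 100 reads within RefSeq genes and 1 kb on each side were summed per gene. Pooling adds cytosines that differ between libraries, and most have 3 reads, so single-site levels are coarse.

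Loci with at least 20 calls in all 8 libraries were tested with edgeR 4.0.16 in R 4.3.3 (quasi-likelihood, methylated and unmethylated counts, a mean per library, a methylation term per group), with Benjamini-Hochberg adjustment over all loci at 0.05; limma 3.58.1 (pseudocount 1) was an alternative. The fit was tested on simulated data. The SE given for edgeR is the absolute log2 odds change divided by the square root of the F statistic of its test. Ratios have conditional exact and levels Clopper-Pearson 95% intervals, and a count of 0 allows 3 counts of the total. These intervals and limits take calls as independent, which calls on the same read are not. Python 3.11.15 with scipy 1.17.1 pooled the levels. Members, lists and tests were chosen with earlier results of these data known, so lists are described by counts and medians. Named list genes are those called between days or in the net effect, and in each list also the 2 tested members with the smallest unadjusted p between treated days. Other alternatives were call minimums of 10 and 40 or none, the replicate block, centring, read maximums, left-out libraries and genes, other weights and other end windows. The 2 libraries of a group differed in their numbers of sites and calls, so no file was a copy of another, and each was kept as 1 sample; this says nothing on separate cultures. The columns hold no exons, so exonic and intronic sites were not told apart.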

Additional observations from a re-analysis of the deposited data

Results flagged for a closer look

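The enzyme effect differed between the days at 2 genes of the pathway lists, Plxna4 and Fn1, by the test of that difference itself (net day effect in edgeR). At Plxna4 it was larger on day 1 by 1.41 ± 0.44 (SE) in log2 odds, with an adjusted p of 0.0383; the untreated level was lower on day 1 and the treated levels were 30.2% ± 1.98 and 29.9% ± 1.24. At Fn1 it was larger by 5.75 ± 1.71, with an adjusted p of 0.0304. The untreated libraries of day 1 had no methylated call at Fn1, so that the size of this value is no measured fold and its SE no measured error. The median locus was at 1.10 in this effect, and over all loci 3.54% were called in this direction. No receptor gene was among them.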

How the results depend on the processing

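The number of receptor genes called in the edgeR tests (0 of 4 between treated days, 4 of 4 for the enzyme on each day, 0 of 4 between untreated days, 0 of 4 for the net effect) was the same with call minimums of 10 and 40, with other read maximums and with each library left out in turn (0, 4, 4, 0 and 0 throughout). With the replicate block it was 0, 4, 4, 0 and 0 too. Deviations of same-numbered libraries correlated at -0.0241 to 0.0188 over 5654 loci, so no pairing by replicate number was seen. With most sites at 3 reads and different positions read in each library, these correlations cannot exclude a pairing. Centring each library on its median locus in limma, which by construction removes the enzyme effect that loci share, gave 0 calls for the enzyme on both days, turned Flt4 to -0.75 and Nrp2 to -0.36 on day 0 and Flt1 to -0.21 on day 1, and turned the net effect of Flt1 to -0.61 and of Nrp1 to -0.057. Limma called 1 receptor gene, Flt4, between untreated days without centring and none with it. With centring, 2 of 5654 loci were called lower and 5 higher between untreated days. The cause was not tested. Leaving out a library moved the enzyme effect of Flt1 on day 0 between 3.71 and 8.64 and the treated day differences of Flt1 and Nrp2 to 0.16 to 0.91 and 0.11 to 1.15, and turned the sign of Nrp1 between treated days (-0.53 to 0.018), of Flt1 between untreated days (-0.77 to 4.16) and of the net effect of Flt1 (-3.58 to 1.34) and Nrp1 (-0.12 to 1.62), none of them called. The pooled treated difference of the 7 loci, 0.639 points, was -1.87 with each gene weighted equally, 5.87 in the 29 blocks shared by both days, and -1.45, 1.92, 1.95, 2.11 and -2.67 without Flt1, Kdr, Flt4, Nrp1 and Nrp2; leaving out a library gave -0.206 to 1.48. For the bodies (1.49) it was 6.57 in shared blocks and -0.488, 3.46 and -2.004 without Flt1, Nrp1 and Nrp2, and 0.00261 to 2.98 without a library. For the ends (-2.57) it was -16.04 to 10.9 without a library, -7.69 with each gene equal, 1.92 in 2 shared blocks, -7.15 without Flt4 and without Nrp1, -4.68 without Kdr, 2.06 without Nrp2, 2.11 with 500 bp and -10.3 with 2 kb windows. The pooled untreated difference (-1.26) was -1.77 in shared blocks, -0.811 without Flt4 and -1.63 to -0.904 without a library. With no call minimum Kdr and Tie1 entered as well and 5 of 6 genes were called for the enzyme on day 0 and 6 of 6 on day 1. In that fit 10841 of all 12424 loci were called higher with the enzyme on day 0 and 12096 on day 1, so these counts are the background. Depth limits all of this: most sites had 3 reads, Kdr and Tek had 12 to 96 calls per treated library, and the standard errors of the day differences with the enzyme (0.48 to 0.65 at the 4 tested genes) were close to the differences themselves.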
